A study of Mus musculus with 4 samples.

Results

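Long TCRβ CDR3s were taken as the in-frame rows of the TCRβ clone tables whose CDR3 held 17 or more amino acids, with the conserved cysteine and phenylalanine at its ends counted. They were 6170 of 364420 in-frame TCRβ clones, and of 382531 TCRβ clones in all. Rows with identical CDR3 nucleotides and the same V and J were merged into one rearrangement, which left 5473 long rearrangements among 312814. The cells were total splenic CD4 T cells of young mice with an average age of 25 days, sorted as live CD4+ CD25- TCRβ+ cells that did not bind the aGalCer-loaded CD1d tetramer, so that iNKT cells were excluded. There were 2 WT and 2 Tet2/3 DKO libraries. Tet2/3 DKO mice lack Tet2 in all cells and carry floxed Tet3 alleles that CD4Cre deletes in developing T cells. CD4Cre acts after the Tcrb locus has rearranged, so that TCRβ joins of the Tet2/3 DKO formed in thymocytes that lacked TET2 and still had TET3. The labels number the samples as biological replicates. Permutation and sign-flip p-values rest on the values of these libraries alone. The edgeR p-values also draw on a spread pooled over segments or residues, so that they do not measure the spread between these libraries alone. In bulk RNA the reads of a clone do not tell more cells from more transcript per cell.

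The CDR3 of the TCRβ chain is the loop encoded across the joined V, D and J segments, and it lies over the peptide when the receptor binds peptide and MHC. Its length is set by the length of the germline segments, by the bases that nucleases trim from their ends, by palindromic (P) bases left when hairpins are opened off centre and by untemplated (N) bases that the enzyme TdT adds. The locus holds a pair of D segments. TRBD1 lies before both J clusters, whereas TRBD2 lies between them and can join TRBJ2 but, in the usual order of joining, not TRBJ1. TET2 and TET3 oxidise methylated cytosine and act in T cell development, and the study asked whether their loss changes the repertoire.

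The sequences below show how a long CDR3 is put together. Each is the coding strand from the codon of the conserved cysteine to that of the conserved phenylalanine, with the bases assigned to the D segment in capitals. All segments lie on chromosome 6, and coordinates are those of RefSeq for GRCm38, the assembly also called mm10. TRBD1 (chr6:41533201-41533212) was read as GGGACAGGGGGC where all its 12 bases were kept, and TRBD2 (chr6:41542163-41542176) as GGGACTGGGGGGGC where all its 14 were kept. For the pair of segments that led the long class, TRBV5 (chr6:41062359-41062803) and TRBJ2-3 (chr6:41543223-41543271), the most abundant rearrangement with TRBD2 in WT replicate 1 is given at 14 amino acids, the most frequent length, and at 17. Both use all 21 CDR3 bases of TRBJ2-3 and hold 3 N bases, and they differ in the bases kept of V (13 against 16) and of D (5 against 11).
TRBV5, TRBJ2-3, 14 amino acids, 14 reads: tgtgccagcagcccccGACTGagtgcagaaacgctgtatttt
TRBV5, TRBJ2-3, 17 amino acids, 21 reads: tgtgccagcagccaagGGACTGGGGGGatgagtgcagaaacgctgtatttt

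The most abundant long rearrangement of each library is given next, since these carry the most reads of the class. All 4 were 17 amino acids long, all used TRBD2 with 11 to 14 of its bases, and all used TRBJ2-4 or TRBJ2-5. They held 118 to 258 reads, 0.0269% to 0.0652% of the in-frame reads of their library, and ranked between place 14 and place 133 among all rearrangements of it. None was found in another library.
WT replicate 1, TRBV12-2 and TRBJ2-5, 174 reads: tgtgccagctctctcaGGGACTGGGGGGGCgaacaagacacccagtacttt
WT replicate 2, TRBV26 and TRBJ2-4, 118 reads: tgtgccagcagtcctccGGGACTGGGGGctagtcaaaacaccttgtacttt
Tet2/3 DKO replicate 1, TRBV13-3 and TRBJ2-4, 258 reads: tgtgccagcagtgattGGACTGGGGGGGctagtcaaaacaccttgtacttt
Tet2/3 DKO replicate 2, TRBV12-2 and TRBJ2-4, 189 reads: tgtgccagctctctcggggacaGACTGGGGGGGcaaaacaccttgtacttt

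The longest rearrangement of each library held 20 to 22 amino acids and 3 to 7 reads. The longest of all, in WT replicate 2, joined TRBV31 to TRBJ1-6 with 16 N bases. That of Tet2/3 DKO replicate 1 joined TRBV26 to TRBJ1-2 with 30 bases assigned as N, and a stretch of 14 bases occurs at 2 places in it, so that its N and D bases, and its length, are in doubt. Of the 5473 long rearrangements, 2 of WT replicate 1 and 1 of each other library held a repeated stretch of 10 or more bases.
WT replicate 2, TRBV31 and TRBJ1-6, 22 amino acids: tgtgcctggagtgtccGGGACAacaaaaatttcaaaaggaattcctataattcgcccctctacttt
Tet2/3 DKO replicate 1, TRBV26 and TRBJ1-2, 21 amino acids: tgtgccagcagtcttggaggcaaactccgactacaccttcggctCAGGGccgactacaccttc

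Long CDR3s were the upper tail of a distribution that peaked at 14 amino acids in all 4 libraries. They made up 1.83% of the in-frame rearrangements of WT replicate 1 (1231 of 67224), 1.91% of WT replicate 2 (1567 of 82148), 1.81% of Tet2/3 DKO replicate 1 (1442 of 79586) and 1.47% of Tet2/3 DKO replicate 2 (1233 of 83856). The last value stood apart, with a 95% Wilson interval of 1.39% to 1.55% against 1.72% to 1.91% for the other Tet2/3 DKO library. WT libraries averaged 1.87% ± 0.054 and Tet2/3 DKO libraries 1.64% ± 0.24 (SD, n = 2 each). The groups did not overlap, but the difference of -0.228 percentage points (Tet2/3 DKO minus WT) had an exact two-sided permutation p of 0.33, the smallest that 2 against 2 libraries allow. Without Tet2/3 DKO replicate 2 the difference was -0.0575 points, and without Tet2/3 DKO replicate 1 it was -0.399 points. With 16 or more amino acids as long the difference was -0.523 points (exact permutation p = 0.67), and with 18 or more it was -0.0302 points. At both of these lengths the groups overlapped. In reads the long class held 1.51%, 1.65%, 1.62% and 1.10% of the in-frame reads in the same order, so that here the groups overlapped (exact permutation p = 0.67), and without Tet2/3 DKO replicate 2 the sign turned (0.0356 points).

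Most long CDR3s sat at the threshold. Between 82.5% and 86.3% of the long rearrangements of a library had exactly 17 amino acids, 141 to 225 had 18, 26 to 31 had 19 and 2 to 4 had 20 or more. At 16 amino acids, just outside, there were 4453 to 5582 rearrangements per library, 6.02% to 6.81%. Rearrangements of 16 amino acids held TRBV5 in 24.8% to 27.8% and TRBD2 in 54.5% to 58.7%. Those of 17 held TRBV5 in 29.0% to 35.2% and TRBD2 in 64.9% to 69.6%. Tet2/3 DKO replicate 2 was the lowest of the 4 libraries at 16, at 17 and at 18 or more amino acids.

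**Figure D1:**
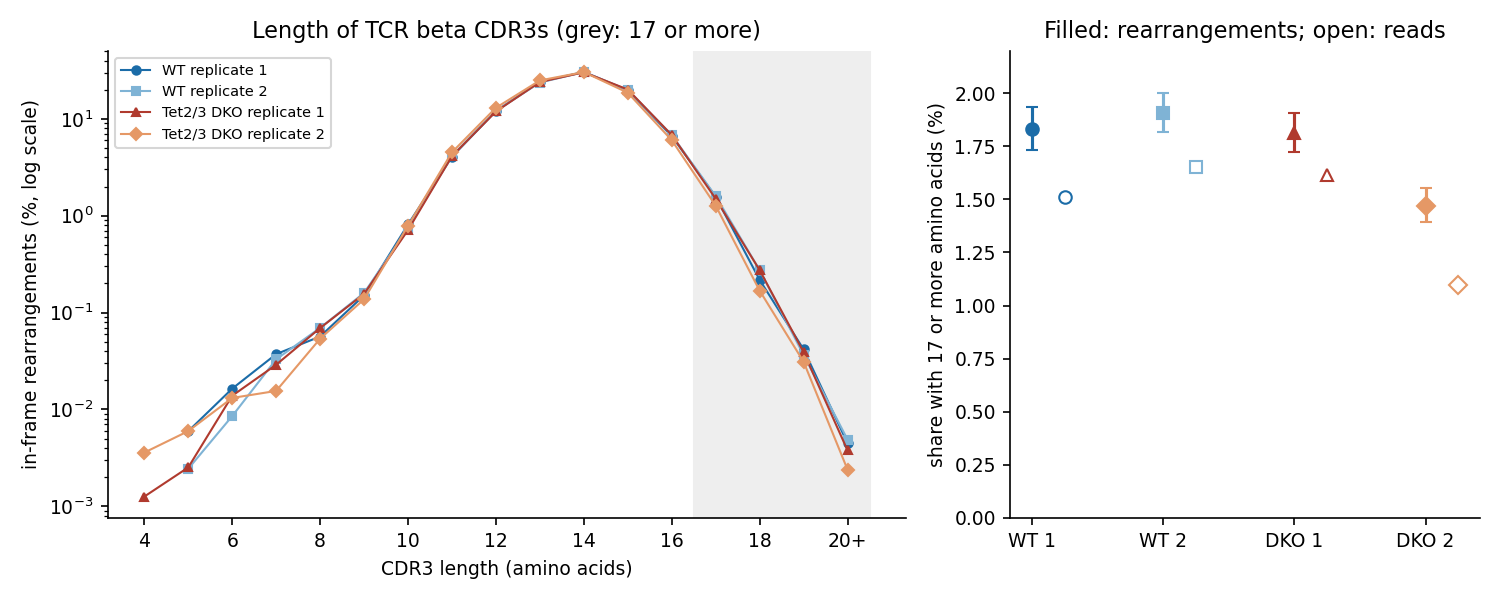
Left, percent of in-frame TCRβ rearrangements (log scale) at each CDR3 length in amino acids, one line per library, with lengths of 20 or more pooled and the long class shaded. Right, share of the long class in percent, filled markers for rearrangements with 95% Wilson intervals (counting error only) and open markers for reads; Tet2/3 DKO replicate 2 lies lowest, at 1.47% of rearrangements and 1.10% of reads.

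Rearrangements that cannot make a TCRβ chain were looked at in the same libraries. Among those in frame with a stop codon (181 to 272 per library), 3.31%, 3.06%, 3.86% and 2.21% had a CDR3 of 51 or more bases, the length of 17 codons, in WT replicates 1 and 2 and Tet2/3 DKO replicates 1 and 2. Among those out of frame (2706 to 3253), 3.38% to 5.34% had 50 or more bases and fewer had 52 or more. Each library's share with a stop codon was above its in-frame share of long CDR3s, but a longer frame also has more codons in which a stop can fall. The out-of-frame share at 52 or more bases was 1.85%, 2.89%, 2.41% and 1.26%, above the in-frame share in 3 libraries and below it in Tet2/3 DKO replicate 2. In both kinds, Tet2/3 DKO replicate 2 again had the lowest share. These transcripts were few, and no test was made.

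The rule sets the sum of the bases, so that every source that varies is raised by the choice of the class. The values below describe how the gain was split and are no test. A long CDR3 held on average 51.5 bases against 41.0 in a shorter one, and the D segment gave the largest part of the gain. D bases numbered 9.75, 9.81, 9.76 and 9.97 in the long class of WT replicates 1 and 2 and Tet2/3 DKO replicates 1 and 2, against 5.36, 5.40, 5.36 and 5.44 in the shorter class. The difference was 4.43 ± 0.067 bases (SD, n = 4), or 42.0% of the gain. J bases were higher by 2.27 ± 0.068 (21.5% of the gain), P bases by 1.41 ± 0.055 (13.3%), V bases by 1.30 ± 0.065 (12.3%) and N bases by 1.15 ± 0.054 (10.9%). Each was higher in the long class of all 4 libraries.

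Less trimming accompanied the longer loops. The V segment was untrimmed in 47.7% to 49.3% of long rearrangements and in 28.3% to 30.0% of shorter ones. The J segment was untrimmed in 50.4% to 52.6% of long and 26.8% to 28.3% of shorter rearrangements. Untrimmed ends add to the length that the rule uses, so that these shares too are a description. N bases, added by TdT, were present in most joins of both classes, and joins with 0 N bases were 6.81% to 7.84% of long and 15.4% to 17.6% of shorter rearrangements. P bases, which remain only beside an untrimmed end, averaged 2.41 to 2.54 in long and 1.06 to 1.07 in shorter rearrangements.

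**Figure D2:**
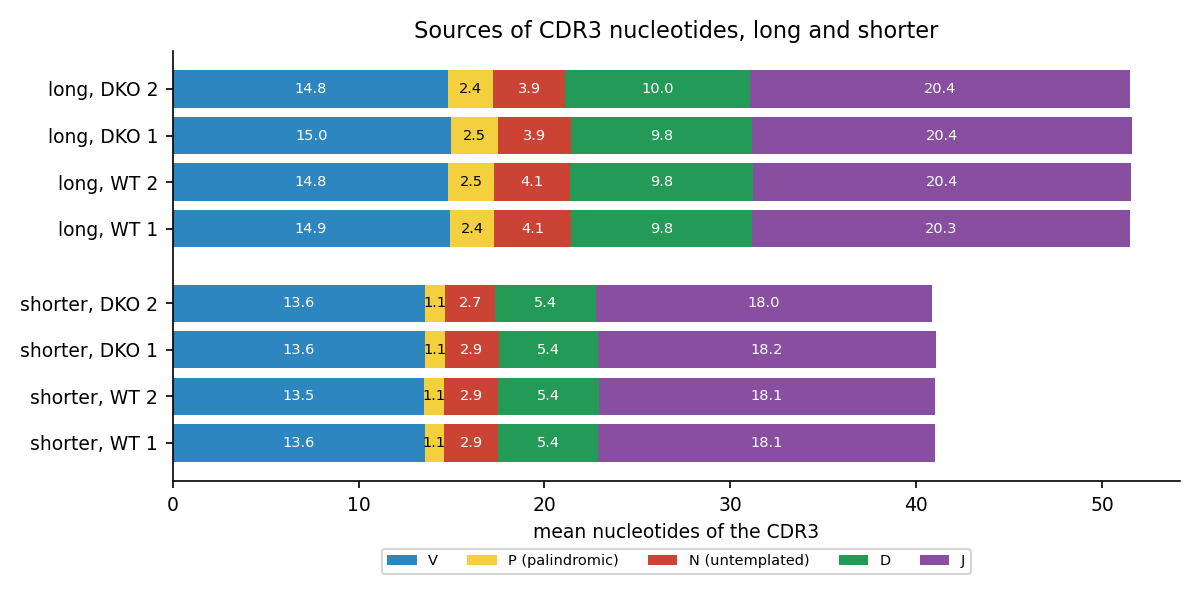
Mean nucleotides of the CDR3 from the V, D and J segments and from P and N bases, for the long and the shorter class of each library; the bars stack the means and do not show the order of bases along the CDR3. D bases are 9.75 to 9.97 in the long class and 5.36 to 5.44 in the shorter class.

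Between genotypes, the make-up of long CDR3s differed by fractions of a base. WT libraries had 4.11 and 4.09 N bases on average and Tet2/3 DKO libraries 3.95 and 3.87, so that the groups did not overlap (difference -0.19, exact permutation p = 0.33, the smallest possible). The shorter class had the same order, with 2.91 and 2.92 in WT against 2.87 and 2.72 in Tet2/3 DKO. Both N regions, between V and D (1.989 and 2.004 against 1.919 and 1.866) and between D and J (2.050 and 1.997 against 1.971 and 1.930), were lower in both Tet2/3 DKO libraries. D bases, V bases and P bases of the long class overlapped between genotypes. J bases did not (20.3 and 20.4 in WT, 20.4 and 20.4 in Tet2/3 DKO, difference 0.0487), nor did the share with J untrimmed (50.8% and 50.4% against 52.6% and 51.6%) or with all 14 bases of TRBD2 (7.96% and 6.96% against 9.36% and 9.25%). Each had the smallest p that 2 against 2 libraries allow (exact permutation p = 0.33), so that label assignments alone separate the groups this often. These were picked out of many measures of the long class, most of which overlapped between genotypes.

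TRBD2 was the D segment of most long CDR3s. It was listed first in 65.6% and 70.5% of the long rearrangements of WT and in 65.7% and 70.1% of those of Tet2/3 DKO, against 28.9% to 31.0% of the shorter ones. TRBD1, the shorter D segment, was listed in 27.5% to 32.6% of long and 41.2% to 43.4% of shorter rearrangements. No D segment was recognised in 1.73% to 2.11% of long and 27.7% to 28.1% of shorter rearrangements. A D segment is listed only where enough of its bases are left to align, and TRBD1 and TRBD2 share bases, so that a trimmed D can go unlisted or be listed as the other one. Both were listed for 8.27% to 9.92% of long and 12.5% to 13.3% of shorter rearrangements, of which the first was taken. All 14 bases of TRBD2 were kept in 6.96% to 9.36% of long rearrangements and in 0.47% to 0.52% of shorter ones. Kept D bases are part of the length, so that these differences are a description. TRBD2 in the long class did not separate the genotypes (WT 68.1% ± 3.45, Tet2/3 DKO 67.9% ± 3.11, SD over 2 libraries each, p = 1 by exact permutation).

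TRBD2 was also more frequent in long CDR3s within the TRBJ2 cluster. A TRBJ2 segment was used by 80.9% to 84.5% of long and 70.5% to 72.8% of shorter rearrangements. Within TRBJ2 alone, TRBD2 was listed in 78.40%, 82.48%, 80.03% and 82.15% of long rearrangements against 40.8%, 40.7%, 39.5% and 38.7% of shorter ones. No D segment was recognised in 0.94% to 1.37% of these long and 24.3% to 24.6% of these shorter rearrangements. Part of the contrast is thus whether any D was listed, which kept D bases and so the rule affect. With TRBJ1, which TRBD2 should not reach, it was still listed in 2.88% to 5.35% of long and 4.24% to 4.92% of shorter rearrangements. The reading frame of TRBD2, over joins with 6 or more of its bases, was 28.1% to 33.1%, 33.1% to 37.2% and 32.1% to 34.7% for frames 1, 2 and 3 of the long class, against 34.1% to 34.8%, 33.2% to 34.4% and 31.3% to 32.4% in the shorter class.

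TRBV5 was the V segment used most by long CDR3s. TRBV5, which encodes the Vβ1 family, was used by 36.0% and 33.4% of the long rearrangements of WT and by 34.05% and 29.28% of those of Tet2/3 DKO, against 13.16%, 12.96%, 13.29% and 11.63% of the shorter ones. The log2 ratio was 1.38 (SE 0.03), a 2.60-fold rise (edgeR quasi-likelihood test with library as a block, Benjamini-Hochberg adjusted p = 1.08e-12, higher in 4 of 4 libraries). Every library separated the classes by more than the spread between libraries. V and J bases are part of the length that the rule uses. The ratios and p-values of V and J use, here and below, thus describe the class and are no independent test. Of all rearrangements with TRBV5, 4.44% were long on average.

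Of 24 TRBV segments tested, 5 (20.8%) passed as higher and 12 (50%) as lower in the long class. The risers after TRBV5 were TRBV24, TRBV17, TRBV1 and TRBV13-2. With 18 or more amino acids only TRBV5 and TRBV17 were called higher (TRBV24 adjusted p = 0.14, TRBV1 adjusted p = 0.37), and TRBV13-2 also lost its call in counts of reads. TRBV24 (chr6:41218091-41218557) had the largest ratio of those that passed (log2 1.79, SE 0.34, adjusted p = 0.00054) but rested on 6 or 7 long rearrangements per library, 0.38% to 0.57%. TRBV17 (chr6:41163092-41163556) was used by 4.22%, 4.34%, 3.88% and 3.24% of long rearrangements against 2.27% to 2.38% of shorter ones (log2 0.76, SE 0.10, adjusted p = 2.2e-05). TRBV1 (chr6:40891296-40891885), the Vβ2 segment, was used by 5.04%, 3.89%, 4.92% and 7.22% of long against 3.59%, 3.60%, 3.91% and 3.97% of shorter rearrangements (log2 0.46, SE 0.11, adjusted p = 0.0027). The Tet2/3 DKO replicate 2 library was the highest for TRBV1 in both classes, and without it the ratio for TRBV1 was log2 0.31.

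Among the segments that fell, TRBV20 was the furthest from its share in shorter CDR3s. TRBV20 (chr6:41188273-41188977) was used by 0.97%, 1.40%, 0.62% and 0.89% of long rearrangements against 6.49% to 6.58% of shorter ones, a 6.61-fold fall (log2 -2.73, SE 0.14, adjusted p = 2.74e-09). TRBV30 (chr6:41281376-41281990), a rare segment at 0.36% to 0.55% of the shorter class, had 0 of 1231 long rearrangements in WT replicate 1, which allows a share of up to 0.244%, and 1, 1 and 4 in the others (log2 -1.95, SE 0.51, adjusted p = 0.0038). Its ratio was log2 -3.03 without Tet2/3 DKO replicate 2, and with 18 or more amino acids the call was lost (adjusted p = 0.28). TRBV19 and TRBV4 were each used by 0.41% to 0.77% of long rearrangements, against 1.30% to 1.92% of shorter ones (log2 -1.51 and -1.45, adjusted p = 2.87e-05 and 1.41e-05), and TRBV19 lost its call with 18 or more amino acids (adjusted p = 0.13). Use was tested as a share of the class, so that the rise of TRBV5 alone lowers the shares of the rest. TMM scaling and DESeq2, which offset this, moved the median log2 ratio over segments by 0.31 and 0.32, and each gave 7 higher and 10 lower.

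TRBV1, TRBV12-1, TRBV12-2 and TRBV15 encode the V families (Vβ2, Vβ5 and Vβ12) that the study singled out, from a wider panel, as differing between genotypes in spleen by flow cytometry, so that they are not an independent choice. There Vβ2 was lower and Vβ5.1-5.2 and Vβ12 were higher in Tet2/3 DKO, as percent of cells with the protein, a measure unlike counts of rearrangements. In the shorter class here, TRBV1 was not lower in Tet2/3 DKO (3.91% and 3.97% against 3.59% and 3.60% in WT). TRBV15, the Vβ12 segment, was used by 2.19%, 2.36%, 2.70% and 3.08% of long against 5.29%, 5.36%, 5.18% and 7.54% of shorter rearrangements (log2 -1.17, SE 0.09, adjusted p = 2.45e-07). TRBV12-1 and TRBV12-2, the Vβ5 segments, were at 0.49% to 1.05% and 0.73% to 2.11% of long rearrangements and were lower than in the shorter class (log2 -0.91 and -0.44, adjusted p = 0.0014 and 0.018). For TRBV12-1 the call was lost in counts of reads (adjusted p = 0.059) and with 18 or more amino acids (adjusted p = 0.17). For TRBV12-2 it was lost in 8 of 13 alternatives, among them those without WT replicate 1, without Tet2/3 DKO replicate 1 and without Tet2/3 DKO replicate 2 (adjusted p = 0.18, 0.11 and 0.051), and in counts of reads the sign turned (log2 0.64, adjusted p = 0.094). The most abundant long rearrangements of WT replicate 1 and of Tet2/3 DKO replicate 2 both use this segment. In the shorter class Tet2/3 DKO replicate 2 was the highest library for TRBV15 (7.54%), TRBV12-1 (2.45%) and TRBV12-2 (2.80%), whereas Tet2/3 DKO replicate 1 lay at 5.18%, 1.14% and 1.20%, below both WT libraries for TRBV12-1 and TRBV15.

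**Figure D3:**
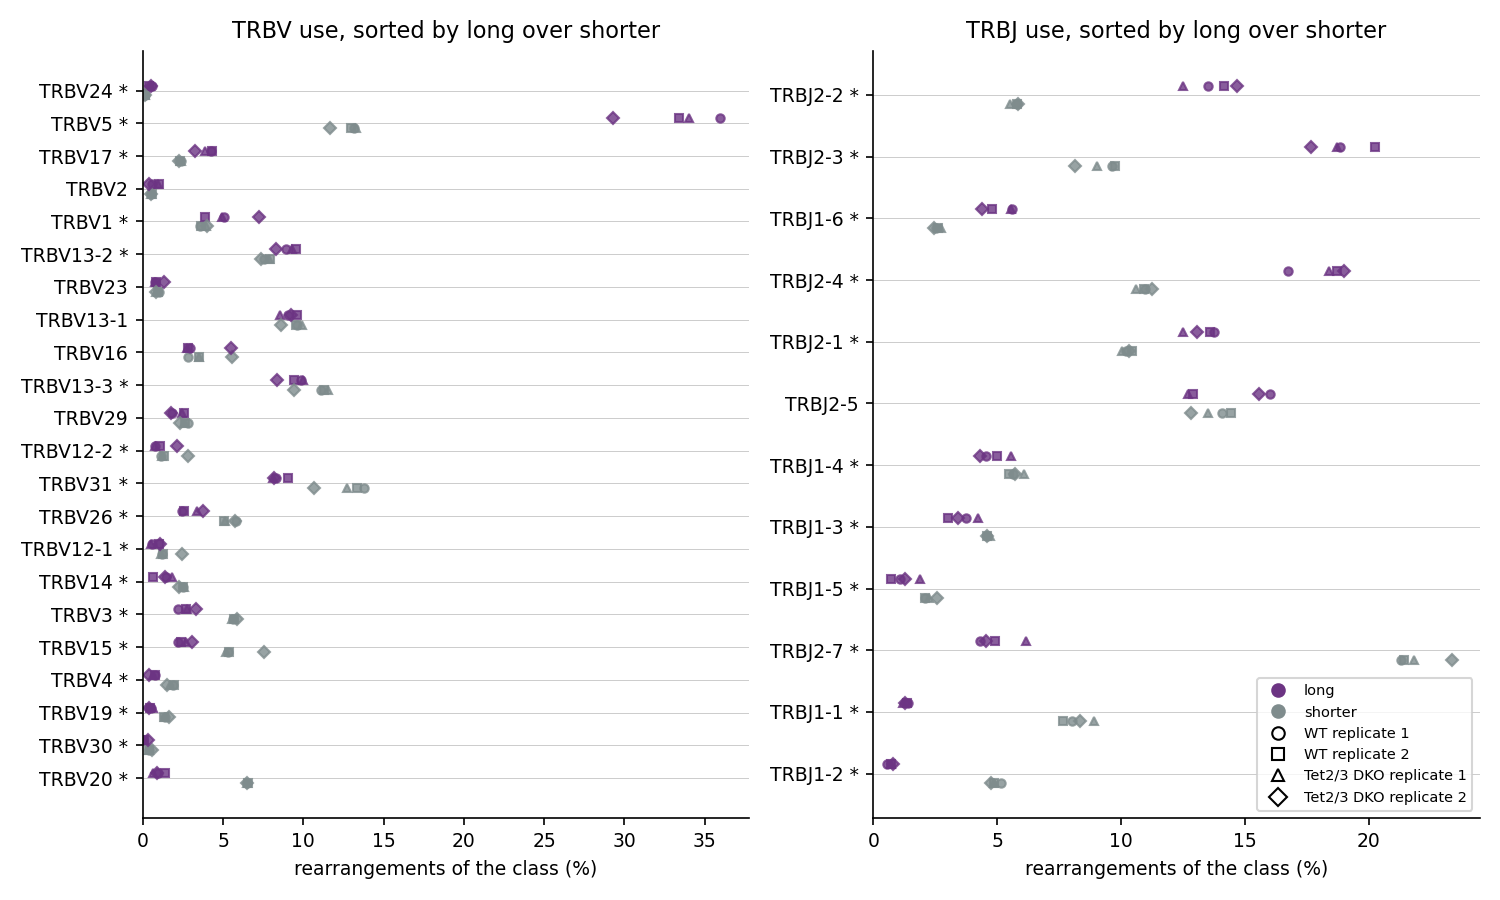
Use of TRBV segments (left) and TRBJ segments (right) in percent of the rearrangements of the class, one marker shape per library, purple for long and grey for shorter, sorted by the fitted ratio of long over shorter; a star marks an adjusted p under 0.05, and segments with fewer than 100 rearrangements are left out. TRBV5 lies at 29.3% to 36.0% of long and 11.6% to 13.3% of shorter rearrangements, and TRBJ2-7 at 4.31% to 6.17% and 21.3% to 23.3%.

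TRBJ2-1 to TRBJ2-4 and TRBJ1-6 were used more, and TRBJ2-7 and the other TRBJ1 segments less, by long CDR3s. TRBJ1-4 was no longer called lower with DESeq2, with 18 or more amino acids or without Tet2/3 DKO replicate 2. With 16 or more amino acids 6 TRBJ segments were higher, TRBJ1-4 among them, and 4 lower, without TRBJ1-3. With 18 or more amino acids TRBJ1-6 (adjusted p = 0.079), TRBJ1-3 and TRBJ1-5 also lost their calls. Of 12 TRBJ segments, 5 (41.7%) passed as higher in the long class and 6 (50%) as lower, each in the same direction in 4 of 4 libraries. TMM scaling dropped TRBJ2-1 and called TRBJ2-5 lower, which gave 4 higher and 7 lower. TRBJ2-2 (chr6:41542957-41543007) was used by 13.5%, 14.2%, 12.5% and 14.7% of long and by 5.53% to 5.83% of shorter rearrangements (log2 1.26, SE 0.04, adjusted p = 1.5e-25). TRBJ2-3 was used by 18.8%, 20.2%, 18.7% and 17.7% against 8.13% to 9.77% (log2 1.05, SE 0.04, adjusted p = 2.12e-23). TRBJ1-6 (chr6:41535554-41535606), the J segment with the longest CDR3 part, was used by 4.38% to 5.61% against 2.43% to 2.73% (log2 0.97, adjusted p = 6.38e-09), and TRBJ2-4 by 16.73% to 18.98% against 10.6% to 11.2% (log2 0.74, adjusted p = 4.08e-16).

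The 3 largest falls were in TRBJ1-2, TRBJ1-1 and TRBJ2-7. TRBJ2-7 (chr6:41543810-41543856), the J segment used most in shorter CDR3s, was used by 4.31%, 4.91%, 6.17% and 4.54% of long against 21.3%, 21.4%, 21.8% and 23.3% of shorter rearrangements (log2 -2.13, SE 0.14, adjusted p = 1.3e-16). TRBJ1-2 and TRBJ1-1, the J segments nearest to TRBD1, were used by 0.57% to 0.81% and 1.18% to 1.38% of long rearrangements, 7.07-fold and 6.33-fold less than of shorter ones (adjusted p = 2.63e-22 and 6.52e-26). TRBJ1-5 was used by 1.06%, 0.70%, 1.87% and 1.30% against 2.10% to 2.55% (log2 -0.87, SE 0.25, adjusted p = 0.0017), and its call was lost in counts of reads (adjusted p = 0.19) and with 18 or more amino acids (adjusted p = 0.093). The remaining segment, TRBJ2-5, was at 16.003%, 12.89%, 12.69% and 15.57% of long and 12.8% to 14.4% of shorter rearrangements and did not pass (adjusted p = 0.50), except as lower under TMM.

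An untrimmed TRBV segment gives 13 to 17 bases to the CDR3. All 5 segments with 13 to 15 bases (TRBV31, TRBV20, TRBV30, TRBV12-1 and TRBV12-2) were lower in the long class. Of the 13 with 17 bases, 4 were higher, 4 lower and 5 passed in neither direction, at the same germline length. Over the 22 TRBV segments with at least 100 rearrangements, the share of a segment's rearrangements that were long had a Pearson r of 0.42 and a Spearman rho of 0.46 with its germline bases, and over the 12 TRBJ segments 0.62 and 0.59. These describe segments of the same 4 libraries and are no test.

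Trimming differed among segments of equal length. TRBV5, with 17 germline bases, lost 1.61 bases on average and was untrimmed in 45.6% of its in-frame rearrangements. TRBV15, TRBV3 and TRBV4, also with 17 bases, lost 3.96, 3.15 and 4.46 bases and were untrimmed in 5.43%, 7.29% and 1.32%. The first was high and the others low in the long class. TRBV24, which had the highest ratio among segments that passed, lost 2.84 bases and so does not follow this order. TRBV2, also with 17 bases, lost 1.47 bases and was untrimmed in 47.2%, but it narrowly did not pass (log2 0.58, edgeR adjusted p = 0.059). It was called in some alternatives, among them 16 or more amino acids, TMM and DESeq2, and not with 18 or more. TRBV17 lost 2.70 bases against 2.16 for TRBV1, yet had the larger ratio. TRBV31, which lies after the constant segments and joins by inversion, gives only 13 bases and was untrimmed in 64.4%, and it still held 8.11% to 9.06% of long rearrangements against 10.7% to 13.8% of shorter ones.

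**Figure D4:**
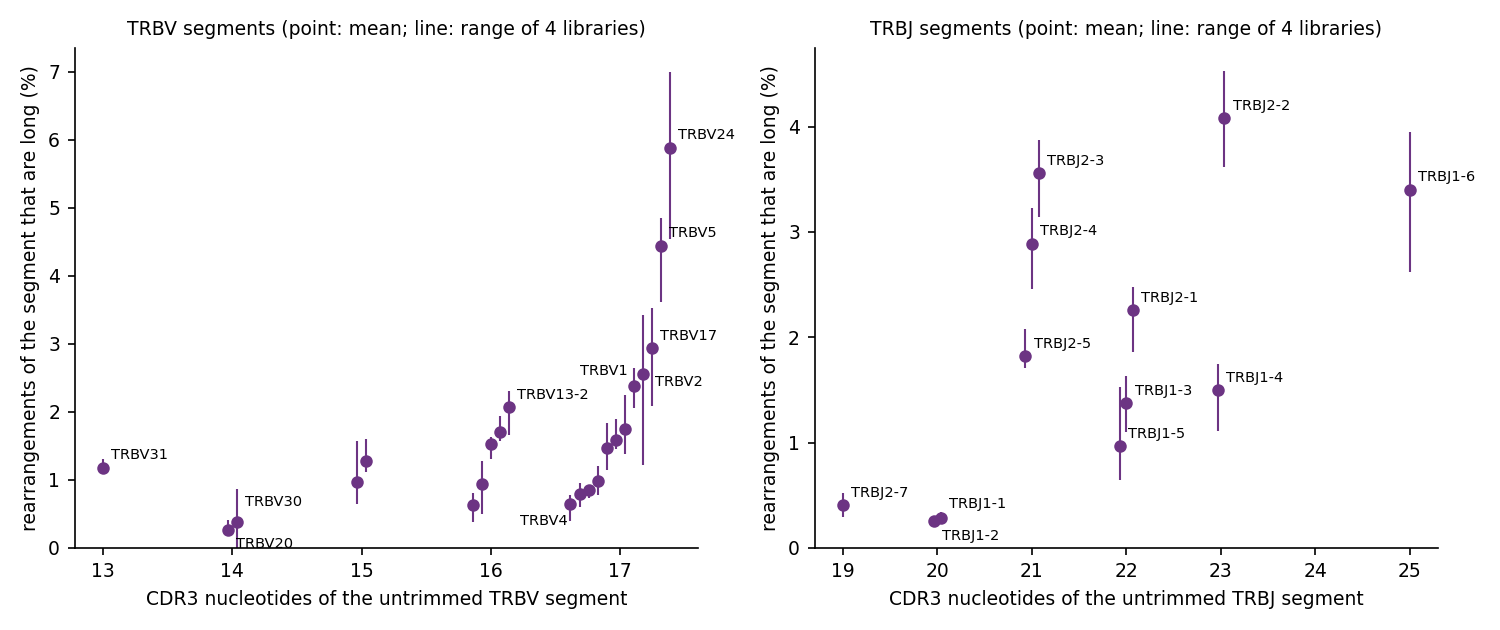
Percent of a segment's in-frame rearrangements that are long (y axis) against the CDR3 nucleotides the untrimmed segment gives (x axis), with points of equal x spread sideways, for TRBV (left) and TRBJ (right); points are means and lines the range over the 4 libraries. The plotted TRBV segments with 17 germline bases range from 0.64% long (TRBV4) to 5.88% (TRBV24).

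Pairs of V and J segments were counted next, with no test of whether a pair was more frequent than its segments' shares give. TRBV5 with TRBJ2-3 alone made up 7.64%, 7.08%, 7.63% and 5.84% of long rearrangements against 0.98% to 1.29% of shorter ones. TRBV5 with TRBJ2-4, TRBJ2-5, TRBJ2-2, TRBJ2-1 and TRBJ1-4 followed, at 5.30%, 4.75%, 4.65%, 3.61% and 1.98% of the long class on average, against 1.15%, 1.92%, 0.71%, 1.19% and 0.86% of the shorter class. The 6 most frequent pairs of long CDR3s all held TRBV5. Each of the 6 was more frequent in the long than in the shorter class of every library.

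No V or J segment of the long class separated the genotypes by the test. The fit of Tet2/3 DKO against WT held 45 rows, TRBV segments by length class, 21 of them long. Of these rows 0 (0%) passed, with 0 at an unadjusted p under 0.05 and 0 with DESeq2. The long rows of TRBV21, TRBV22 and TRBV30 had fewer than 10 counts and were not tested. TRBV5 in the long class, taken as a share of all in-frame rearrangements, had a log2 ratio of Tet2/3 DKO over WT of -0.31 (SE 0.21, adjusted p = 0.60), and TRBV1 one of 0.24 (SE 0.22, adjusted p = 0.72). Leaving out a library moved these to between -0.59 (without Tet2/3 DKO replicate 1) and -0.07 (without Tet2/3 DKO replicate 2) for TRBV5, and to between 0.083 (without WT replicate 2) and 0.40 (without WT replicate 1) for TRBV1. Of 24 rows for TRBJ segments, 0 (0%) passed, with 4 at an unadjusted p under 0.05 and 0 with DESeq2. The only one of these 4 in the long class was TRBJ1-5 (log2 0.70, SE 0.34, unadjusted p = 0.049, adjusted p = 0.26), with 1.87% and 1.30% of long rearrangements in Tet2/3 DKO against 1.06% and 0.70% in WT. Its ratio was log2 0.25 without Tet2/3 DKO replicate 1 and 1.07 without Tet2/3 DKO replicate 2. Leaving out either leaves a lone Tet2/3 DKO library that is assumed to vary like the WT pair, whose spread alone then enters the test. In these fits 6 rows (TRBJ2-3 the only one of the long class) and 5 rows (TRBJ1-5 the only one) passed.

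The contrast between long and shorter CDR3s was also compared between genotypes. Of 24 TRBV segments 0 (0%) passed the test of the interaction of length class and genotype, with 2 at an unadjusted p under 0.05 and 0 with DESeq2. These 2 were TRBV26 (3.40% and 3.73% of long rearrangements in Tet2/3 DKO against 2.44% and 2.55% in WT) and TRBV14 (1.80% and 1.38% against 1.46% and 0.64%), each with an adjusted p of 0.43. Of 12 TRBJ segments 0 (0%) passed, with 0 at an unadjusted p under 0.05 and 0 with DESeq2.

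The middle of the loop, between the first 4 and the last 6 residues, held 7.18 residues on average in long and 3.67 in shorter CDR3s. It was richer in glycine, the residue that both D segments encode most. Glycine made up 31.0%, 31.1%, 31.1% and 31.2% of the central residues of long CDR3s against 27.1%, 27.4%, 27.0% and 27.0% in shorter ones (log2 0.20, SE 0.0041, adjusted p = 2.47e-22). Of 20 residues, 4 (20.0%) passed as higher and 8 (40.0%) as lower, each in the same direction in 4 of 4 libraries. Kept D bases are part of the length that the rule uses. The residue shares and their p-values, here and below, thus describe the class and are no independent test.

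Tyrosine, tryptophan and alanine rose with glycine. Tyrosine made up 1.337%, 1.375%, 1.502% and 1.563% of central residues in long against 1.02% to 1.07% in shorter CDR3s (log2 0.47, SE 0.07, adjusted p = 2.08e-06). Tryptophan, a large aromatic residue, made up 3.55% to 3.99% against 3.04% to 3.19% (log2 0.29, adjusted p = 5.86e-06). Alanine rose from 5.81% to 6.05% to 6.92% to 7.27% (log2 0.25, adjusted p = 6.8e-06). With 18 or more amino acids tyrosine and alanine lost their calls (adjusted p = 0.060 and 0.17). Counted between the first 3 and the last 3 residues, tyrosine was lower in long CDR3s (log2 -0.49).

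Among residues that passed, the largest falls were in glutamate, threonine, glutamine and phenylalanine. Glutamate, an acidic residue, made up 2.36%, 2.42%, 2.21% and 2.25% of central residues in long against 2.86% to 3.11% in shorter CDR3s (log2 -0.38, SE 0.05, adjusted p = 1.36e-06). Threonine was at 4.29% to 5.13% against 6.0003% to 6.148% (log2 -0.33, adjusted p = 2.08e-06) and glutamine at 4.73% to 6.04% against 6.63% to 6.85% (log2 -0.28, adjusted p = 1.92e-05). Phenylalanine was at 1.16% and 1.08% in long CDR3s of WT against 1.17% and 1.14% in shorter ones, and at 0.80% and 0.86% in Tet2/3 DKO against 1.12% and 1.25% (log2 -0.26 over all 4, adjusted p = 0.010). The larger gap in Tet2/3 DKO was not tested. For phenylalanine the call was lost in 7 of 10 alternatives, among them those without WT replicate 2, without Tet2/3 DKO replicate 1 and without Tet2/3 DKO replicate 2 (adjusted p = 0.059, 0.17 and 0.25). Without Tet2/3 DKO replicate 2, 5 residues passed as lower. Tyrosine and glutamine turned sign when the window began after the first 3 and ended before the last 3 residues, which takes in residues of the V and J ends (log2 -0.49 and 0.24). Of the other charged residues, aspartate made up 8.30% to 8.37% of central residues in long against 9.47% to 10.02% in shorter CDR3s (log2 -0.24, adjusted p = 1.38e-05), and arginine 6.76% to 7.87% against 7.57% to 8.43% (adjusted p = 0.062). The mean net charge of the centre was -0.24, -0.20, -0.19 and -0.16 in long CDR3s of WT replicates 1 and 2 and Tet2/3 DKO replicates 1 and 2, and -0.18, -0.17, -0.18 and -0.12 in shorter ones, whose centre is shorter by the rule.

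Long CDR3s were rarely found in more than a single library. A clonotype, defined by V, J and CDR3 amino acids, was shared with another library for 3.55% of the 1210 long clonotypes of WT replicate 1, 3.23% of 1549 of WT replicate 2, 2.75% of 1419 of Tet2/3 DKO replicate 1 and 2.81% of 1212 of Tet2/3 DKO replicate 2. The shares of the shorter clonotypes were 27.4%, 25.6%, 26.1% and 25.6%. The difference was -23.1 ± 0.64 percentage points (long minus shorter, SD, n = 4, lower in 4 of 4 libraries, exact sign-flip p = 0.13, the smallest possible). Its size depended on how clonotypes were matched. The difference was -10.1 points by V, J and CDR3 nucleotides and -31.4 points by CDR3 amino acids alone. Of 5303 distinct long clonotypes, 71 were in 2 libraries, 8 in 3 and 0 in all 4. For a single library's long clonotypes this 0 allows a share of up to 0.194% to 0.248%, whereas 3.62% to 4.44% of a library's shorter clonotypes were in all 4.

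The pairs of libraries were compared next. The WT libraries shared 17 long clonotypes (1.40% and 1.10% of their lists), the Tet2/3 DKO libraries 7 (0.49% and 0.58%), and the 4 pairs of a WT with a Tet2/3 DKO library 12 to 21 (0.99% to 1.73%). In the shorter class every pair shared 11.9% to 14.6% of either list. The long class shared less in Tet2/3 DKO than in WT libraries (difference -0.614 percentage points, exact permutation p = 0.33, the smallest possible). The sign turned when 16 amino acids counted as long (0.0219 points), without Tet2/3 DKO replicate 1 (0.280 points) and without Tet2/3 DKO replicate 2 (0.0346 points).

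The share found in another library was highest among long CDR3s with 0 N bases and lowest among those with 6 or more. Among long rearrangements with 0 N bases, 12.5%, 10.5%, 11.5% and 13.1% had a clonotype found in another library, against 0.60%, 0.25%, 0% and 0.36% of those with 6 or more. The 0 was 0 of 363, which allows a share of up to 0.826%. Between these, 6.78%, 5.29%, 3.18% and 4.09% were shared with 1 to 2 N bases and 2.38%, 3.24%, 3.23% and 2.52% with 3 to 5, so that in Tet2/3 DKO replicate 1 these bins had nearly the same share. Shorter rearrangements ranged from 47.7% to 52.4% with 0 N bases to 13.5% to 14.7% with 6 or more. At each number of N bases the long class was shared less than the shorter class in every library. TRBV5 was the V segment of 46 of the 79 shared long clonotypes (58.2%) and of 32.3% of the unshared ones.

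**Figure D5:**
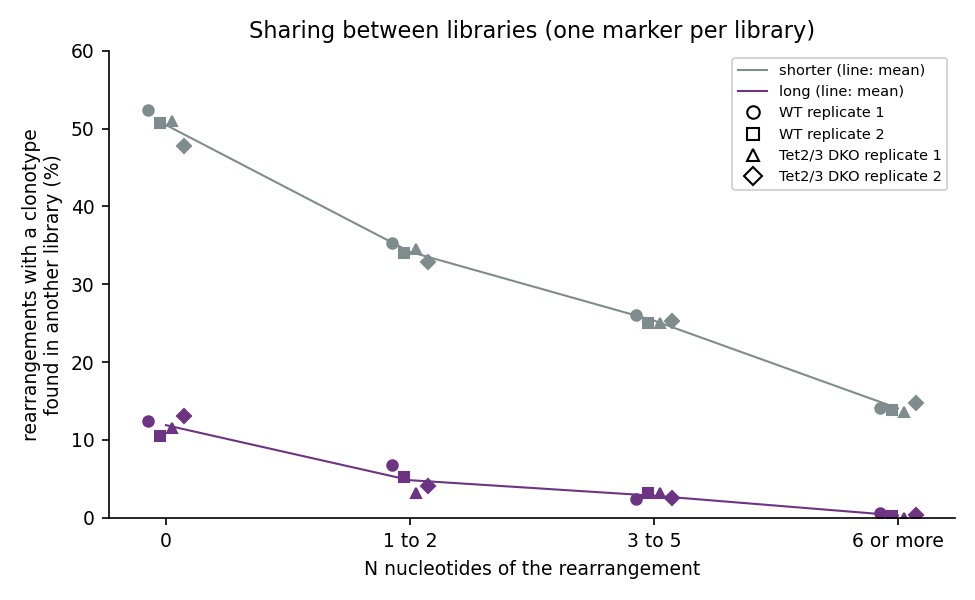
Percent of rearrangements whose clonotype (V, J and CDR3 amino acids) was found in another library, by number of N nucleotides, with markers for libraries and lines for the mean of the 4, purple for long and grey for shorter CDR3s. With 0 N nucleotides 10.5% to 13.1% of long and 47.7% to 52.4% of shorter rearrangements were shared.

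Of the 8 long clonotypes found in 3 libraries, 6 used TRBV5. They were chosen after their values were seen, since no long clonotype was in all 4. The one with the most reads, 46 in all, joined TRBV13-1 to TRBJ2-4, kept 13 or 14 bases of TRBD2 and was encoded by 4 nucleotide sequences, a different one in each library below. Only a single long nucleotide sequence, TRBV5 with TRBD1 and TRBJ1-3, was found in 3 libraries, with 7 and 8 reads in WT and 4 in Tet2/3 DKO replicate 2. It holds all 17 bases of TRBV5, all 12 of TRBD1, 20 of TRBJ1-3, 2 P bases and 0 N bases. In all, 18 of 5454 distinct long nucleotide rearrangements were in more than a single library.
TRBV13-1 and TRBJ2-4, WT replicate 2, 3 reads: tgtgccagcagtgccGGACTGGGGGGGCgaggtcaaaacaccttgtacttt
TRBV13-1 and TRBJ2-4, Tet2/3 DKO replicate 1, 13 reads: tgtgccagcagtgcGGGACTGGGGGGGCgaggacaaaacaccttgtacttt
TRBV13-1 and TRBJ2-4, Tet2/3 DKO replicate 2, 29 reads: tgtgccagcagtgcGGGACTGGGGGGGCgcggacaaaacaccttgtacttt
TRBV5 and TRBJ1-3, in 3 libraries: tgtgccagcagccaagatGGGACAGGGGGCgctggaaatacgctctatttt

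Clones with long CDR3s held slightly fewer reads on average than the rest. The mean number of reads per rearrangement was 4.32, 4.62, 4.43 and 4.91 in the long class against 5.26, 5.35, 4.98 and 6.61 in the shorter class of WT replicates 1 and 2 and Tet2/3 DKO replicates 1 and 2, lower in 4 of 4 libraries (difference -0.98 ± 0.50, SD, n = 4, exact sign-flip p = 0.13). The median was 4 reads in both classes of all 4 libraries, and the means differed at equal medians. The most abundant rearrangement held 2852, 1097, 1125 and 9642 reads in the far larger shorter class, in the same order. In the long class it held 174, 118, 258 and 189. A single read supported 17.1%, 15.7%, 18.4% and 16.9% of long and 15.1%, 13.9%, 14.5% and 13.9% of shorter rearrangements.

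The weight of the most abundant long clones was compared last. The 10 most abundant long rearrangements held 7.75% and 6.40% of the long reads in WT and 10.002% and 13.19% in Tet2/3 DKO, and the groups did not overlap (exact permutation p = 0.33, the smallest possible). The difference was 4.52 points, 2.93 points without Tet2/3 DKO replicate 2, and -0.43 points when 16 amino acids counted as long. In the shorter class the groups overlapped, with 2.69% and 1.40% in WT against 1.22% and 6.83% in Tet2/3 DKO. Long rearrangements with 50 or more reads numbered 1 (0.08% of the class) in WT replicate 1, 2 (0.13%) in WT replicate 2, 4 (0.28%) in Tet2/3 DKO replicate 1 and 6 (0.49%) in Tet2/3 DKO replicate 2. The shares of the shorter class, 0.36%, 0.29%, 0.15% and 0.61% in the same order, overlapped between genotypes. Mean reads per long rearrangement overlapped between genotypes (exact permutation p = 0.67).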

How the data were processed

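TCR SMART-seq libraries of sorted splenic CD4 T cells from 2 WT and 2 Tet2/3 DKO samples were used. Per the labels and the study's methods, total RNA was amplified by 5′ RACE without molecular identifiers, sequenced on a MiSeq, demultiplexed with bcl2fastq 2.20.0, trimmed with fastp 0.21.0 and assembled into clones with MiXCR by the preset for this kit, with mm10 named as the genome build. The authors deposited one table per chain and library with the read count of each clone, its segments, its CDR3 and reference points. TCRα tables were not used here. TCRβ tables held 365421 to 569678 reads.

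Rows with no CDR3 (3737) were left out. In-frame rows were collapsed to rearrangements, each counted once, and reads were summed. V, D, J, P and N bases came from the reference points, and these summed to the CDR3 length in 100% of in-frame rows. The first listed segment was used. All 36 V and J segments matched RefSeq by symbol. Residues were counted between the first 4 and the last 6.

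Segment and residue counts were tested with edgeR 4.0.16 (quasi-likelihood, library as a block for long against shorter, features with at least 10 counts, scaled by column totals, adjusted p under 0.05, over all features of a table), after tests on simulated data. Values per library were compared by exact permutation of the genotype labels (6 assignments) or sign flips over libraries (16 patterns). DESeq2 1.42.0, TMM and other settings were alternatives. Wilson intervals (95%) and the limit for a count of 0 (3 counts) cover counting error only, since reads without identifiers are not independent molecules. Named segments and residues were up to 4 of the largest rises and falls of each kind that passed and moved the same way in 4 libraries, the segments of the V families that the study reports as differing in spleen by flow cytometry, and the most abundant and longest rearrangements. The rule's clonotypes of all 4 libraries had no member, and those of 3 were used in their place. The members, lists and tests were chosen with earlier results of these data known.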

Additional observations from a re-analysis of the deposited data

Results flagged for a closer look

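The share of lysine among the central residues was higher in long than in shorter CDR3s of both WT libraries (0.0687 percentage points on average) and lower in both Tet2/3 DKO libraries (-0.0150 points on average). The difference between the genotypes was not tested, and lysine did not pass the test of long against shorter.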

How the results depend on the processing

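Over the alternative settings that kept all libraries, 156 values for the comparisons kept their direction or, for counts of calls, stayed within 1.5 times, 7 counts moved and 12 differences between genotypes turned sign. The causes were not tested. The share of 1-read rearrangements has no value among clones of at least 2 reads. With 18 or more amino acids as long, 2 TRBV segments were higher and 7 lower, 3 TRBJ segments were lower and 5 residues were lower, with fewer rearrangements tested. In counts of reads 5 residues were lower. Of the values for single segments and residues, 241 stayed on their side of the threshold, 19 lost their call, most of them with 18 or more amino acids, and 8 turned sign. TMM and DESeq2 gave 7 TRBV segments higher and 10 lower, so that higher calls were 41.2% of the calls against 29.4%, and the median log2 ratio over TRBV segments moved by 0.31 and 0.32 (over TRBJ segments by -0.27 with TMM). Differences of the long class, Tet2/3 DKO minus WT, turned as follows. With clones of at least 2 reads, V bases were at -0.0315, TRBD2 among TRBJ2 at -0.156 points and TRBV15 at log2 -0.079. With 18 or more amino acids, J bases were at -0.0170, P bases at -0.0665, TRBD2 at 0.511 points, 1-read rearrangements at -0.702 points and TRBV1 at log2 -0.29. With 16 or more, TRBD2 among TRBJ2 was at -1.70 points, sharing at 0.0219 points, mean reads at -0.0365, the top 10 at -0.432 points and TRBV12-1 at log2 0.17. In counts of reads, P bases were at -0.0267, TRBD2 at 0.866 points, TRBV12-2 at log2 -0.20 and TRBV15 at log2 -0.22, and TRBV12-2 in long over shorter at log2 0.64. With the window of 3 and 3 residues, tyrosine was at log2 -0.49 and glutamine at 0.24. Leaving out a library, the genotype difference ranged from -0.483 to 0.0356 points for the share of reads, from -0.0459 to 0.104 for V bases, from -0.0234 to 0.190 for D bases, from -0.0258 to 0.0821 for P bases, from -2.64 to 2.24 points for TRBD2, from -1.39 to 2.70 points for TRBD2 among TRBJ2, from -0.856 to 0.280 points for sharing, from -0.0375 to 0.444 for mean reads, from log2 -0.80 to 0.23 for TRBV12-1 and from log2 -0.33 to 0.83 for TRBV12-2. Residues lower in long CDR3s numbered 5 to 9, and TRBJ rows called between genotypes 0 to 6. The labels number both genotypes alike but name no shared batch. Deviations of same-numbered libraries correlated at 0.161 and 0.225 (long and shorter TRBV segments) and 0.327 and 0.0598 (TRBJ). With the replicate number as a block, 2 TRBV rows passed between genotypes, TRBV12-2 and TRBV16, both of shorter CDR3s, and 0 TRBJ rows. With clones of at least 2 reads 1 TRBJ row passed, TRBJ2-3 of shorter CDR3s. Between 1231 and 1567 long rearrangements a library, with a median of 4 reads each, limit what segments used by few of them can show.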
